A study of Mus musculus with 22 samples.

Results

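The genes described here are the protein-coding genes of mouse chromosome 12 whose annotated start lies within 10 Mb of Ahr, the gene that encodes the aryl hydrocarbon receptor (AhR). They are the genes with a start between 25497974 and 45535038 on mm10, and the rule leaves out Ahr itself and Agr2, Rsad2, Lamb1, Rps7 and Slc26a4, which lie in the same window. This gave 66 genes of the 21793 protein-coding genes that both count tables hold. Of these, 42 lie below Ahr in coordinate and 24 above it, and 46 lie within 5 Mb. RNA was sequenced from lung epithelial cells (ECs) sorted as live CD45-CD31-EpCAM+ cells. At steady state, which the labels call naive, the libraries came from wildtype (WT) mice (n = 4), from mice labelled AhR-KO, here AhR-/- (n = 3), and from mice labelled CYP1B1-KO, here CYP1B1-/- (n = 3). A further 4 libraries of each genotype came from mice labelled HDM-sensitized, which received house dust mite extract (HDM) into the nose, were challenged from 8 days later on 4 consecutive days and were sampled 72 h after the last challenge. All mice were C57BL/6 or lines crossed back to it, of both sexes and over 7 weeks of age. The age and sex behind each library are not given in the labels, and both knockouts were carried in the whole body from the germline, so all cell types of these mice carried them.

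AhR is a ligand-activated transcription factor that senses dietary, microbial and environmental molecules and switches on genes such as the CYP1 enzymes, which in turn break down its ligands. In the lung, epithelial cells meet such ligands with the inhaled air. Many mouse knockout lines were made in embryonic stem cells of another strain and then crossed to C57BL/6, and such a line keeps a stretch of the donor strain's DNA around the targeted gene, because genes close together on a chromosome are inherited together. The CYP1B1-/- line was targeted on chromosome 17, so WT and CYP1B1-/- libraries together form the comparison group for genes near Ahr. Gene counts do not show which strain's DNA a mouse carried, and the strain of origin of the region was not tested.

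The libraries held 9.65 to 17.9 Mio counts, and 3 counts stood for 0.0742 to 1.09 counts per Mio (CPM) on the normalized library sizes. Ahr counts were not lower in the libraries labelled AhR-/-: they were at 24.7 ± 2.78 CPM (SD, n = 3) against 13.6 ± 3.32 (SD, n = 4) in WT and 13.9 ± 2.68 (SD, n = 3) in CYP1B1-/- at steady state. In the quasi-likelihood test of edgeR Ahr was 0.84 on the log2 scale at steady state (SE 0.19, Benjamini-Hochberg adjusted p = 0.953) and 0.67 after HDM (SE 0.25, adjusted p = 0.0593), neither past the threshold of 0.05, and it passed in the fit over both states, at 0.75 (SE 0.20, adjusted p = 0.0398, edgeR). Counts were summed over all exons of a gene, so the check does not show whether a functional transcript was made. Epcam was found in all libraries, at 54.6 to 406 CPM. Counts of Ptprc, which encodes CD45, reached 432 CPM after HDM, although CD45+ cells were to be sorted away. The CPM sum of 17 hematopoietic marker genes was 143 to 993 in the AhR-/- HDM libraries, 304 to 4230 in CYP1B1-/- and 1830 to 4280 in WT, and that of 8 alveolar type 1 markers was 3050 to 17100, 405 to 4110 and 713 to 4920 in the same order. The sums of 4 club markers were 1270 to 5570, 185 to 4130 and 163 to 1630, those of 4 ciliated markers 83.9 to 146, 34.7 to 86.9 and 42.8 to 74.9, and those of 8 alveolar type 2 markers 5770 to 50500, 4010 to 32700 and 3700 to 15800. A single gene, Gm10800, held 0.00819% to 71.9% of the counts of an HDM library and 9.54% to 29.2% of a steady-state library. All markers of these lists had counts in each of these groups. At steady state the alveolar type 1 sums were 27600 to 43100 in all groups, and the hematopoietic sums 39.8 to 618. Replicates 3 and 4 of AhR-/- HDM were the only HDM libraries with more than a trace of the Y-linked gene Ddx3y (53.8 and 52.2 CPM, at most 0.0639 in the others), whereas all steady-state libraries had it. These replicates also stood apart in other ways, with median rank correlations of 0.764 and 0.795 with the other HDM libraries, where the rest had 0.864 to 0.941, and with alveolar type 1 sums of 14100 to 17100 CPM against 405 to 7720. Replicate 2 of CYP1B1-/- at steady state stood apart, with a highest rank correlation of 0.937 with any other steady-state library where the others reached at least 0.98.

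Acp1, which encodes the low-molecular-weight protein tyrosine phosphatase, was the member that lay apart in AhR-/- libraries of both states. It is gene ENSMUSG00000044573, on the minus strand of chromosome 12 from 30893326 to 30911589, with its start 4.605 Mb below that of Ahr. Its first exon lies head to head with Sh3yl1, which is transcribed from the plus strand from 30911668, and the annotated ends of the genes leave 78 bases between them. Sh3yl1 encodes an adaptor protein that binds membrane phosphoinositides. The stretch between the genes is shown because it is the shared upstream DNA of a gene that was lower and a gene that was not. It is given 5′ to 3′ on the minus strand, the direction of Acp1, at chr12:30911590-30911667 of GRCm38.p6 from RefSeq. Capitals mark the 55 bases that lie outside both genes in RefSeq as well, whose Acp1 start is farther upstream than that of GENCODE.
Acp1-Sh3yl1: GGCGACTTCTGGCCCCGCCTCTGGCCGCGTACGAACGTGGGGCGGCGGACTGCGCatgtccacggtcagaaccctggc
G and C made up 71.8% of these bases. GCGTG, the core of the element AhR binds with its partner ARNT, was searched on both strands in the RefSeq promoter windows, from 250 bases before to 50 after each start. It was in none of the windows of Acp1, Sh3yl1 and Tmem18, and in 10639 of 32851 windows of all genes (32.4%). Among members it was in 31 of 73 windows (42.5%). The longer TNGCGTG, which contains GCGTG, was in 3 of the members' windows (4.11%) and in 5.07% of all windows. A match to these letters is a description of the window only.

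At steady state Acp1 was counted at 2.68, 3.09 and 5.12 CPM in the AhR-/- libraries. The CYP1B1-/- libraries had 9.74, 17.0 and 16.8 CPM and the WT libraries 16.1, 13.8, 16.0 and 17.2. All AhR-/- libraries thus lay below all others, with group means of 3.63 ± 1.31 (SD, n = 3), 14.5 ± 4.14 (SD, n = 3) and 15.8 ± 1.43 (SD, n = 4). The log2 fold change of AhR-/- against the mean of WT and CYP1B1-/- was -2.06 (standard error, SE, 0.26), a level 4.17-fold lower (95% interval 2.82 to 6.16), and the edgeR test gave an adjusted p of 0.0584. This was the lowest p-value of the 15547 genes tested but did not pass the threshold of 0.05. No gene passed it (0% of genes), and 279 genes (1.79%) had an unadjusted p under 0.05. Without CYP1B1-/- replicate 2, the library that stood apart, Acp1 passed (adjusted p = 4.6e-04, edgeR), as it did without AhR-/- replicate 4 (log2 fold change -2.41, adjusted p = 0.0291). It did not pass in the other 8 fits that left out 1 library, with an adjusted p of up to 0.325, without WT replicate 4, and the smallest fold change was -1.88, without AhR-/- replicate 1 (adjusted p = 0.229, edgeR).

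After HDM Acp1 was at 2.15, 1.41, 1.82 and 2.12 CPM in the AhR-/- libraries. CYP1B1-/- libraries had 7.38, 10.2, 9.74 and 8.66 CPM and WT libraries 9.97, 5.22, 9.69 and 8.36. Again no AhR-/- library reached the lowest of the others. Acp1 fell by 2.20 on the log2 scale (SE 0.25, adjusted p = 0.00903, edgeR), a level 4.61-fold lower (95% interval 3.19 to 6.66). The raw counts behind these values were small in some libraries: the AhR-/- HDM libraries held 87, 22, 5 and 16 Acp1 counts. Against CYP1B1-/- alone Acp1 fell by 2.25 after HDM (adjusted p = 0.0172, edgeR), and no other gene of the table passed in that comparison (0.00706% of genes). Without CYP1B1-/- replicate 2, 20.7% of genes and 16 members passed there, and without AhR-/- replicate 2, 18.8% and 9. That call was lost without any single AhR-/- library other than replicate 2, and in 8 of the 12 fits that left out 1 library. Against WT and CYP1B1-/- together it was lost without AhR-/- replicate 4 (adjusted p = 0.0585, edgeR), and with both AhR-/- replicates that had Y-linked reads left out Acp1 fell by 2.24 with an adjusted p of 0.204. Since AhR-/- libraries are compared with WT and with CYP1B1-/-, these comparisons share the AhR-/- libraries.

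**Figure D1:**
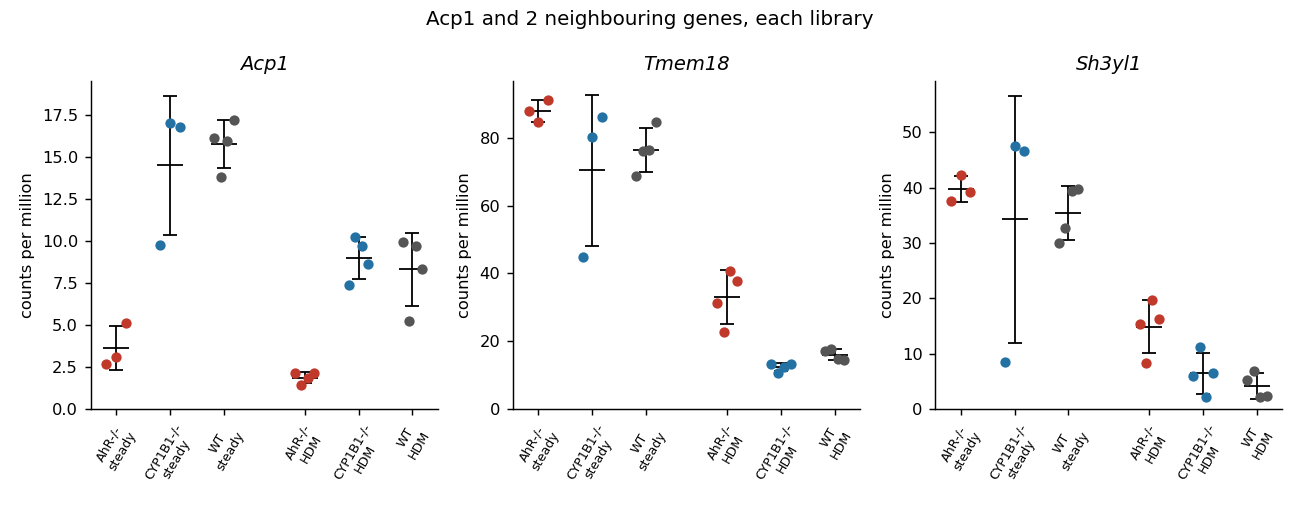
Normalized level (CPM) of Acp1, Tmem18 and Sh3yl1 in each library, by genotype and state; points are libraries and bars are mean ± SD. Acp1 is lower in all AhR-/- libraries of both states, at 1.41 to 5.12 CPM against 5.22 to 17.2, whereas Tmem18 is apart in the HDM libraries only and Sh3yl1 overlaps in both states.

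Over both states in one fit of all 22 libraries, Acp1 fell by 2.13 on the log2 scale (SE 0.23, adjusted p = 6.11e-05, edgeR), again with the lowest p-value of all genes tested. The difference of its effect between HDM and steady state was -0.14 (SE 0.43, 95% interval -1.02 to 0.75). Of the 13567 genes tested in both tables, 11 (0.0811%) had all AhR-/- libraries on the same side of all other libraries in both states, and Acp1 was the only member among them. CYP1B1-/- minus WT was -0.12 for Acp1 at steady state (95% interval -0.65 to 0.42), or 0.11 without CYP1B1-/- replicate 2 (-0.33 to 0.54). After HDM it was 0.10 (-0.42 to 0.62), and none of these passed.

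Reads of Acp1 can also come from or go to other genes. Alkal2 lies on the other strand and shares 14.6% of the exon length of Acp1. Of all 50-base stretches of Acp1 transcripts, 26.1% are found in another gene too, 12.7% in Alkal2, 8.67% in Gm14388 on chromosome 7 and 7.26% in Gm1866 on chromosome X. Whether the counting used strand, and what it did with reads that map to more than 1 place, is not given in the sources used here. Alkal2, which encodes a ligand of the receptor ALK, was at most 0.301 CPM in all libraries. The copies with similar sequence were not lower in AhR-/- libraries: Gm14388 was at 4.92 to 5.12 CPM against 2.81 to 7.34 at steady state, and Gm1866 at 3.1 to 3.5 against 1.2 to 4.8.

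The genes beside Acp1 were not called lower in either state. Tmem18, which encodes a protein of the nuclear membrane, starts 0.309 Mb from Acp1. At steady state it was at 87.9, 84.8 and 91.1 CPM in AhR-/- libraries, where WT had 68.8 to 84.7 and CYP1B1-/- 44.9 to 86.0, a log2 fold change of 0.26 (SE 0.18) that did not pass and was 0.14 without CYP1B1-/- replicate 2. After HDM it was at 31.2, 22.7, 40.7 and 37.8 CPM in AhR-/- libraries. CYP1B1-/- libraries had 13.4, 10.7, 12.3 and 13.2 CPM and WT libraries 17.2, 17.7, 14.7 and 14.6. Tmem18 was therefore higher in all AhR-/- HDM libraries than in any other, by 1.22 on the log2 scale (SE 0.18, adjusted p = 0.0158, edgeR).

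Sh3yl1 was at 37.6, 42.2 and 39.3 CPM in the steady-state AhR-/- libraries. In WT it was at 30.0 to 39.7 CPM and in CYP1B1-/- at 8.53, 47.5 and 46.7, the lowest being the library that stood apart. The log2 fold change was 0.19 (SE 0.37), and without that library -0.04 (95% interval -0.28 to 0.20). After HDM Sh3yl1 was at 15.3, 8.25, 19.6 and 16.3 CPM in AhR-/- libraries. CYP1B1-/- libraries had 5.98, 11.2, 2.16 and 6.43 CPM and WT libraries 5.30, 6.81, 2.24 and 2.30. Sh3yl1 rose by 1.55 (SE 0.40, adjusted p = 0.0198, edgeR), with 1 CYP1B1-/- library inside the AhR-/- range. Fam110c, the next gene above, differed by 0.16 at steady state and 0.56 after HDM, neither past the threshold.

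At steady state no other member came near the threshold. Of the 56 members that passed the filter on low counts, 0 passed in AhR-/- against WT and CYP1B1-/-, and 3 had an unadjusted p under 0.05, namely Acp1, Cmpk2 and Pxdn. Without CYP1B1-/- replicate 2 there were 5 (8.93%), these 3 with Tspan13 and Cdhr3, where 3.18% of genes had such a p. With edgeR's likelihood ratio test, DESeq2 or limma voom 1 member passed, where 0.0643%, 0.0772% and 0.0836% of genes did. Cmpk2, a mitochondrial nucleotide kinase known to be induced by interferon, was at 6.99, 9.35 and 9.98 CPM in AhR-/- libraries and at 9.80 to 15.9 in the others, which overlap (log2 fold change -0.59). Pxdn, which encodes peroxidasin, an enzyme that cross-links collagen IV of the basement membrane, was at 261 to 280 CPM against 257 to 777 (log2 fold change -0.66, and -0.43 without CYP1B1-/- replicate 2). Both were higher in CYP1B1-/- libraries than in all AhR-/- libraries. Against WT alone 0% of genes and 0 members passed, with 1.69% of genes and 2 members, Acp1 and Cmpk2, at an unadjusted p under 0.05. Against CYP1B1-/- alone 0.00643% of genes and 0 members passed, with 4.23% of genes and 3 members at that unadjusted level.

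The intervals bounded the steady-state differences of most members. For 34 of the 56 (60.7%) the 95% interval of the log2 fold change lay within 2-fold in either direction, against 67% of all genes tested. The median absolute log2 fold change of the 49 members tested in both tables was 0.198 at steady state, beside 0.149 over all genes. Without CYP1B1-/- replicate 2 these medians were 0.166 and 0.108. After HDM the median was 0.521 for members and 0.526 for all genes, and the interval lay within 2-fold for 13 of 49 members (26.5%) against 30.3% of all genes.

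**Figure D2:**
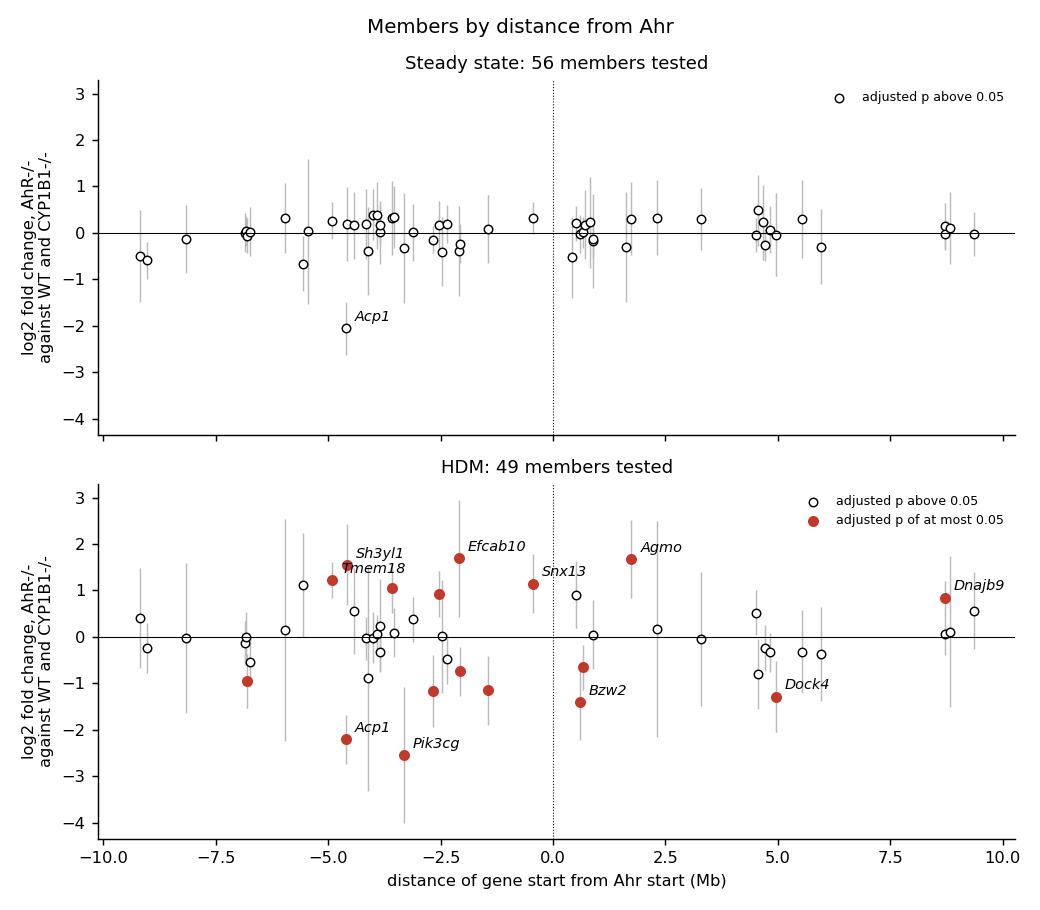
Log2 fold change of AhR-/- against the mean of WT and CYP1B1-/- for each member tested (56 at steady state, 49 after HDM), plotted against the distance in Mb of its start from that of Ahr; bars are 95% intervals and filled points have an adjusted p of at most 0.05. At steady state no point is filled and Acp1 stands alone at -2.06, and after HDM the 17 filled points lie on both sides of Ahr and of 0.

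After HDM 17 of the 49 members tested (34.7%) passed between AhR-/- and the other libraries (adjusted p up to 0.05, edgeR), 8 higher and 9 lower. Over all genes tested the share was 26.5%, with 12.6% higher and 13.9% lower. Against WT alone 16 members passed, 8 higher and 8 lower, where 22.1% of genes passed, 9.22% higher and 12.9% lower. The count against WT fell to 0 without AhR-/- replicate 1, 3 or 4 or WT replicate 3 or 4, where 0 genes passed, and to 2 (3.92%) without WT replicate 1, where 6.13% of genes passed. Leaving out genes that held 1% or more of any library gave 10 higher and 7 lower members against WT and CYP1B1-/-, with 16% of genes higher and 10.8% lower. Without AhR-/- replicate 4, 3 or 1 the members that passed in that comparison numbered 0, 1 (1.85%) and 11 (22%), where 0%, 0.0133% and 14.9% of genes passed. With the hematopoietic score, the mean log2 level of the marker list, in the fit 0 members and 0 genes passed, and without the AhR-/- replicates that had Y-linked reads 0 members and 0 genes passed. Of the 9 members that were lower, 8 had their lowest value outside AhR-/- in CYP1B1-/- replicate 2, which had the lowest hematopoietic marker sum of the WT and CYP1B1-/- libraries, and the exception was Acp1. Of the 8 that were higher, 7 had their lowest AhR-/- value in replicate 2, the AhR-/- HDM library with the lowest alveolar type 1 sum, and the exception was Efcab10. In sorted bulk RNA, fewer cells of a type and less RNA per cell cannot be told apart, and the part of the marker genes in the members' differences was not tested.

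All 17 members kept their direction in the fit with the hematopoietic score, at 35.9% to 101% of the log2 fold change without it. For 5 of them more than 80% was left, namely Acp1 (-2.23), Dnajb9 (0.80), Tmem18 (1.06), Hbp1 (0.90) and Efcab10 (1.44). Under 50% was left for Ankmy2 (-0.32), Agmo (0.79), Bzw2 (-0.64), Pik3cg (-0.98) and Nampt (-0.42). The rest lay between, Sypl at 0.58, Sh3yl1 at 0.93, Snx13 at 0.61, Twistnb at -0.41, Trappc12 at -0.52, Hdac9 at -0.62 and Dock4 at -0.66. Without the AhR-/- replicates that had Y-linked reads all 17 kept their direction too, at 48.5% (Snx13, 0.56) to 104% (Twistnb, -0.77). None of the 17 passed in either fit. After HDM the hematopoietic sums of AhR-/- and WT libraries did not overlap (143 to 993 against 1830 to 4280 CPM). The fit with the score thus cannot separate genotype from marker level, and the percentages left do not divide the differences between them. No score of alveolar type 1 markers was fitted.

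Members of secretion, vesicles and the endoplasmic reticulum included the highest expressed. Per length of all annotated exons of a gene joined, Tspan13, a tetraspanin, led in WT at steady state (149 RPKM, reads per kilobase and Mio reads). Sypl (77.5) and Dnajb9 (74.1) followed, and 13 members reached 10 RPKM. Dnajb9, a co-chaperone of the endoplasmic reticulum, was at 91.0, 71.9, 111 and 94.3 CPM in the AhR-/- HDM libraries. The CYP1B1-/- libraries had 43.1 to 54.2 CPM and the WT libraries 52.1 to 57.4, so the groups did not overlap, and Dnajb9 rose by 0.85 on the log2 scale (SE 0.17, adjusted p = 0.0158, edgeR). Sypl, a vesicle membrane protein related to synaptophysin, was at 156, 147, 208 and 213 CPM against 64.7 to 127 in CYP1B1-/- and 72.3 to 118 in WT. It rose by 0.92 (SE 0.23, adjusted p = 0.0181, edgeR). Together with Acp1 and Tmem18 these were the 4 members whose AhR-/- HDM libraries lay outside all others, where 4.79% of genes did so. At steady state 1 member did, Acp1, where 1.12% of genes did.

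Tspan13 lies closest above Ahr of the members tested in both tables, with its start 0.5166 Mb away. It was at 148, 57.0, 217 and 187 CPM in the AhR-/- HDM libraries, where the others had 40.9 to 108, and its log2 fold change of 0.91 did not pass (adjusted p = 0.0589, edgeR). Of the 6 members grouped as secretory and epithelial, 4 were tested after HDM and 1, Sypl, passed (25%). Of the 6 members grouped as endoplasmic reticulum and matrix 4 were tested and Dnajb9 passed (25%). The share of all genes was 26.5%.

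Snx13, a sorting nexin of endosomes, is the nearest to Ahr of the members tested in both tables, with its start at -0.4508 Mb relative to that of Ahr. It was at 75.2, 33.8, 115 and 114 CPM in AhR-/- HDM libraries. CYP1B1-/- libraries had 28.8, 38.1, 27.0 and 50.3 CPM and WT libraries 40.3, 51.8, 34.2 and 34.9. Replicate 2 of AhR-/- lay among the other genotypes, the other three above them, and Snx13 rose by 1.15 (SE 0.30, adjusted p = 0.0196, edgeR). At steady state Snx13 was at 365, 351 and 507 CPM against 301 to 391.8 (log2 fold change 0.31, unadjusted p = 0.0714, edgeR). The trafficking genes Trappc12, a subunit of a vesicle-tethering complex, and Dock4, an activator of the GTPase Rac, fell after HDM by 0.95 (SE 0.27, adjusted p = 0.0247, edgeR) and by 1.29 (SE 0.35, adjusted p = 0.022, edgeR). All 8 members grouped as trafficking were tested and these 3 passed (37.5%, against 26.5% of all genes). The group counts Atxn7l1, which is not known for that role. Trappc12 was at 9.41 to 14.4 CPM in AhR-/- libraries and 11.4 to 29.2 in the others, and Dock4 at 1.72 to 6.88 against 5.24 to 13.5.

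Among the 10 signalling members, 8 were tested after HDM, and 2 passed higher and 3 lower (62.5%, against 26.5% of all genes). Pik3cg, the catalytic subunit of phosphoinositide 3-kinase gamma, is best known from white blood cells. After HDM it showed the largest fold difference of any member in the fit of all libraries without a covariate. It was at 8.84, 7.29, 2.55 and 1.59 CPM in AhR-/- libraries. WT libraries had 32.6, 20.4, 40.8 and 43.1 CPM and CYP1B1-/- libraries 22.3, 2.14, 49.2 and 39.9. The single low CYP1B1-/- value, replicate 2, belongs to the library with the lowest hematopoietic marker sum of that genotype, 304 CPM. Pik3cg fell by 2.55 (SE 0.67, adjusted p = 0.0204, edgeR). With the hematopoietic score its log2 fold change was -0.98, where Acp1 had -2.23. Without the AhR-/- replicates that had Y-linked reads the values were -1.95 and -2.24. At steady state Pik3cg was at 1.34 to 2.36 CPM in AhR-/- libraries and 0.867 to 5.98 in the others, which overlap. Efcab10, an EF-hand protein, rose by 1.69 (SE 0.58, adjusted p = 0.0475, edgeR) at low levels of 0.928 to 4.73 CPM against 0.255 to 1.85. Ankmy2, an ankyrin-repeat protein 0.6591 Mb above Ahr, fell by 0.66 (SE 0.23, adjusted p = 0.0479, edgeR).

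Of 15 members of transcription and RNA, 12 were tested after HDM, and 1 passed higher and 3 lower (33.3%, against 26.5% of all genes). Hbp1, a transcriptional repressor with an HMG box, was at 76.7, 35.2, 73.8 and 74.6 CPM in AhR-/- libraries and 23.0 to 44.5 in the others. It rose by 1.06 (SE 0.25, adjusted p = 0.0164, edgeR). Its exons overlap those of Cog5 on the opposite strand by 24.6%, so reads of the genes may be mixed. Bzw2, a regulator of translation start 0.5939 Mb above Ahr, was at 3.18 to 9.27 CPM against 5.95 to 20.8 and fell by 1.40 (SE 0.38, adjusted p = 0.0215, edgeR). Hdac9, a class II histone deacetylase 1.45 Mb below Ahr, fell by 1.15 (SE 0.34, adjusted p = 0.029, edgeR). Twistnb, a subunit of RNA polymerase I 2.068 Mb below Ahr, fell by 0.75 (SE 0.24, adjusted p = 0.0405, edgeR). At steady state Hbp1, Bzw2, Hdac9 and Twistnb differed by 0.32, -0.03, 0.08 and -0.24, or by 0.09, -0.09, 0.26 and -0.11 without CYP1B1-/- replicate 2, with overlapping libraries in each.

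Of 9 members of mitochondria and metabolism, 7 were tested after HDM and 1 passed (14.3%, against 26.5% of all genes). Nampt, the rate-limiting enzyme of NAD salvage, was at 29.5, 31.8, 17.8 and 18.2 CPM in AhR-/- libraries. CYP1B1-/- libraries had 42.0, 21.2, 85.5 and 43.2 CPM and WT libraries 55.6, 38.4, 85.0 and 74.1, so that only the CYP1B1-/- replicate with few hematopoietic counts reached into the AhR-/- range. Nampt fell by 1.17 (SE 0.36, adjusted p = 0.0322, edgeR). Agmo, the enzyme that cleaves alkylglycerol ether lipids, 1.744 Mb above Ahr, was grouped with no pathway. It was at 11.9, 8.63, 22.2 and 23.2 CPM in AhR-/- HDM libraries against 2.46 to 10.7 in the others, and rose by 1.68 (SE 0.39, adjusted p = 0.0164, edgeR).

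**Figure D3:**
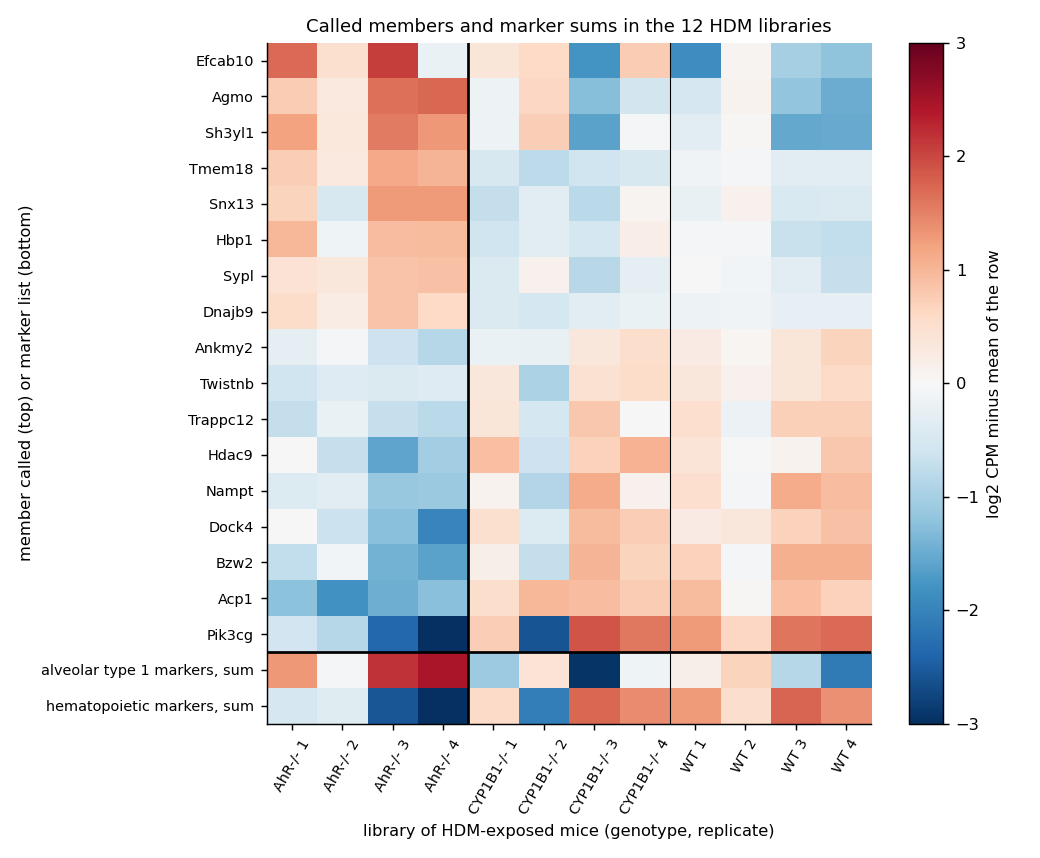
Heat map of the 17 members that passed after HDM, with the alveolar type 1 and hematopoietic marker sums below, as log2 CPM minus the mean of each line across the 12 HDM libraries. In the 8 members that are lower beside Acp1, CYP1B1-/- replicate 2 is the lowest library outside AhR-/-, as it is for the hematopoietic sum, while Acp1 is low in all 4 AhR-/- libraries only.

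Over both states 4 members passed of 58 tested, where 4.74% of genes passed. Tmem18 rose by 0.73 (adjusted p = 0.0269, edgeR), Agmo by 1.00 (adjusted p = 0.0427, edgeR) and Snx13 by 0.72 (adjusted p = 0.0489, edgeR), and Acp1 fell as given above. Of all genes 3.14% passed higher and 1.59% lower in this fit. For the 3 members that rose, the mean over the states joins the difference after HDM to a smaller fitted one at steady state, where Tmem18, Agmo and Snx13 differed by 0.26, 0.31 and 0.31, or by 0.14, 0.09 and 0.28 without CYP1B1-/- replicate 2. With RLE scaling 7 members passed (12.1%), 4 higher and 3 lower, where 9.57% of genes passed, 4.63% higher and 4.94% lower. Tmem18 passed in 16 of the 22 fits that left out 1 library, Agmo in 7 and Snx13 in 6, and Acp1 in all 22. With the hematopoietic score, or without the AhR-/- HDM replicates that had Y-linked reads, Acp1 alone passed. In the latter fit Acp1 fell by 2.15 (adjusted p = 4.58e-04, edgeR).

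The difference between the states was tested as an interaction. In this test 0% of genes and 0 members passed, and 12 members had an unadjusted p under 0.05, where 19.2% of genes did (edgeR). With DESeq2 2 members passed (3.45%), where 10.0% of genes did, and with limma voom 17 (29.3%), where 27.4% did. In edgeR's quasi-likelihood test of all libraries the lowest adjusted p of a member was 0.127, for Tmem18, and 4 members passed without AhR-/- HDM replicate 2 or without CYP1B1-/- HDM replicate 2, where 9.4% and 10.0% of genes did. State and sequencing run cannot be told apart in these tables. Y-linked reads differed by state too, with Ddx3y at 27.9 to 136 CPM in the steady-state libraries. After HDM only AhR-/- replicates 3 and 4 had more than a trace of it. By these reads sex cannot be fully told apart from state, nor from genotype after HDM.

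**Figure D4:**
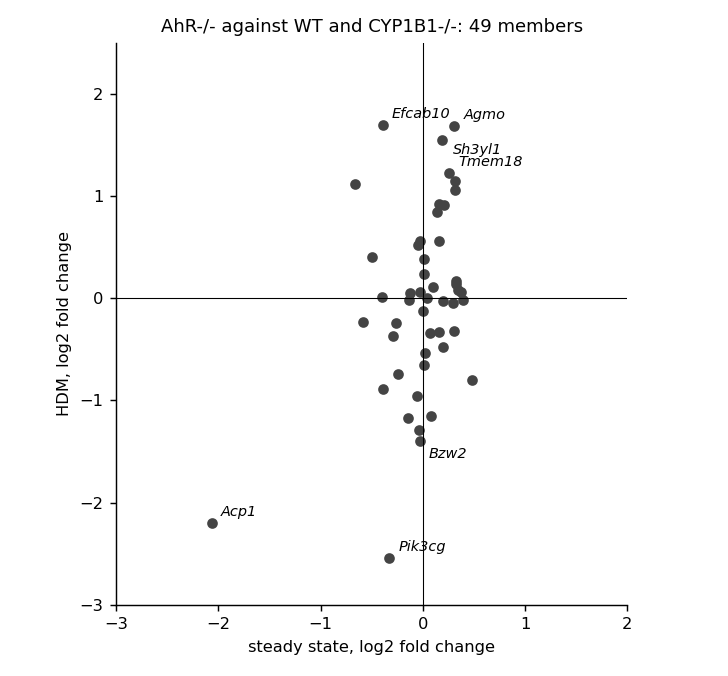
Log2 fold change of AhR-/- against the mean of WT and CYP1B1-/- at steady state (horizontal) and after HDM (vertical) for the 49 members tested in both. Acp1 stands at the lower left, at -2.06 and -2.20, while the other members spread along the vertical axis, with steady-state values between -0.66 and 0.48.

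CYP1B1-/- libraries were compared with WT as a view of the same genes without AhR-/- libraries. At steady state 0.0129% of genes and 0 members passed. At an unadjusted p under 0.05 there were 4 members of 56 (7.14%) and 5.8% of genes, all 4 lower in CYP1B1-/-. These were Etv1, an ETS transcription factor (-0.96), Sostdc1, a secreted antagonist of BMP and Wnt signalling (-1.26), Prkar2b, a regulatory subunit of protein kinase A (-0.83), and Lrrc72 (-1.11). Without CYP1B1-/- replicate 2 there were 7 members (12.5%) and 7.44% of genes at that level, in both directions. Sostdc1 (-1.32) and Lrrc72 (-1.10) were among them. Etv1 and Prkar2b were not, at log2 fold changes of -0.77 and -0.80, and Sh3yl1 (0.42) and Hbp1 (0.40) were higher in CYP1B1-/-. After HDM 0% of genes passed, 1.65% had an unadjusted p under 0.05, and 0 members did. Against CYP1B1-/- alone the AhR-/- HDM libraries gave 18 members at an unadjusted p under 0.05, where 29.9% of genes had one, and Acp1 was the only member that passed after adjustment in edgeR's quasi-likelihood test. With the likelihood ratio test 11 members passed (22.4%), where 17.4% of genes did, with DESeq2 12 (24.5%), where 20.5% did, and with limma voom 18 (36.7%), where 30.2% did.

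Along the chromosome, the members called after HDM lay on both sides of Ahr, beside 26.5% of all genes called in that comparison (12.6% higher, 13.9% lower). Under 2.5 Mb from Ahr 7 of 12 tested members passed (58.3%), 3 higher and 4 lower. From 2.5 to 5 Mb 8 of 22 passed (36.4%), 4 in each direction, and from 5 to 10 Mb 2 of 15 (13.3%), 1 in each direction. Below Ahr 12 of 31 passed (38.7%) and above it 5 of 18 (27.8%). The share of members with the same sign in both states was 59.2% (29 of 49). It was 57.2% over all genes tested, 56.9% on the rest of chromosome 12 and 63.1% among genes within 10 Mb of Cyp1b1, the gene targeted in the other line. Without CYP1B1-/- replicate 2 at steady state the share was 61.2% for members and 53% for all genes. With all libraries, the share of members by distance was 50% under 2.5 Mb, 68.2% from 2.5 to 5 Mb and 53.3% beyond. No difference between these shares was tested, and genes of 1 region are not independent of each other.

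Members with few counts did not pass the filter on low counts. Alkal2, Allc, Colec11, Dcdc2c, Ferd3l, Gm6993, Prps1l1 and Twist1 passed it in none of the steady-state, HDM and joint fits of all libraries. Their highest value in any library was 0.201 CPM for Gm6993, 0.351 for the transcription factor Twist1 and 1.93 for Dcdc2c, the highest of the 8. Without the filter all 66 members were tested. Of all members, 7 stayed under 1 CPM in every library. The level that 3 counts stood for was 0.181 to 0.301 CPM in the steady-state libraries and 0.0742 to 1.09 CPM in the HDM libraries.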

How the data were processed

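RNA of sorted lung ECs was sequenced after oligo-dT primed, template-switching cDNA synthesis. Per the labels and the study's methods, the authors used bcl2fastq 2.19.1 for the runs, bbduk for trimming, GSNAP for alignment to mm10 and featureCounts 2.0.0 for gene totals on an Ensembl annotation. The deposited values are counts, whole reads per gene without normalization, in one table per state.

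Protein-coding genes and positions were taken from GENCODE M21 by Ensembl identifier. In R 4.3.3, edgeR 4.0.16 was run on all genes of a table: filterByExpr (minimum count 10, minimum total 15), TMM, glmQLFit with robust estimation and glmQLFTest, with the 3 genotypes fitted jointly. A gene passed at 0.05 after Benjamini-Hochberg adjustment over all genes tested. Of the members, 56 of 15547 genes were tested at steady state, 49 of 14161 after HDM and 58 of 16639 over both. The standard error was taken as the size of the log2 fold change over the root of F. CPM and RPKM use TMM library sizes, and log2 CPM a prior count of 1. The labels do not say that replicates were separate animals, so p-values measure the spread between these samples.

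Named members are those that passed in any comparison, the 10 of lowest p over both states, those with separate libraries in both states, the 3 tested members nearest to Ahr on each side, and Acp1. Acp1 was included by name, and it also met these criteria other than nearness to Ahr. Others are named where their group is described, and Cmpk2, Pxdn and the 4 genes named for CYP1B1-/- against WT were chosen after their values were seen. The members, lists and rules were chosen with earlier results of these data known. Role groups come from general knowledge, and Atxn7l1 in the trafficking group is not known for that role.

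Alternatives were edgeR's likelihood ratio test, DESeq2 1.42.0, limma 3.58.1 voom with sample weights, RLE scaling, no filter, a minimum of 10 counts per library, the replicate number as a block, the hematopoietic marker score as a covariate, leaving out genes that held 1% or more of any library, leaving out the AhR-/- HDM libraries with Y-linked reads, and leaving out each library in turn. The edgeR quasi-likelihood test was tested on counts simulated from the means, library sizes and dispersions of these tables, with known changes set in some genes.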

Additional observations from a re-analysis of the deposited data

Results flagged for a closer look

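In 76 groups of 4 libraries, a library was set against the rest of its group with Dixon's ratio, the gap to the nearest library over the range of the group. In 6 groups the ratio was above the 95% critical value, and chance alone gives about 1 in 20.

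Hbp1 was low in replicate 2 of AhR-/- after HDM, at 35.2 CPM where the other 3 had 73.8 to 76.7 (ratio 0.952). Efcab10 was low in replicate 3 of CYP1B1-/- after HDM, at 0.27 CPM against 1.41 to 1.85 (ratio 0.849), a level of few counts. Twistnb was low in replicate 2 of CYP1B1-/- after HDM, at 8.804 CPM against 21.6 to 25.04 (ratio 0.859), the library with the lowest hematopoietic marker sum of that genotype. Tspan13 was high in replicate 4 of WT at steady state, at 465 CPM against 328 to 343 (ratio 0.867). Agmo was high in replicate 2 of WT at steady state, at 46.0 CPM against 37.1 to 38.4 (ratio 0.845). Ahr was low in replicate 4 of WT after HDM, at 8.04 CPM against 12.0 to 12.7 (ratio 0.888).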

How the results depend on the processing

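Acp1 kept its direction in all AhR-/- comparisons under all alternatives run, with log2 fold changes of -2.46 to -1.82, and it passed over both states in all 31 alternatives (highest adjusted p 0.00182, edgeR). Its small other differences changed sign: CYP1B1-/- against WT at steady state was 0.14 with voom and -0.251 to 0.11 with single libraries left out (positive without CYP1B1-/- replicate 2), after HDM it was -0.048 with voom and -0.079 to 0.228 (negative without WT replicate 2), and the interaction was 0.11 with voom, 0.027 with the block and -0.336 to 0.22 (positive without AhR-/- replicate 4). At steady state 1 member passed with the likelihood ratio test, DESeq2 and voom in each AhR-/- comparison, and with at least 10 counts in every library against WT and CYP1B1-/-.

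After HDM against WT and CYP1B1-/-, 10 members passed without the filter in place of 17 (15.2%, where 11.9% of genes did), and against WT 7 in place of 16 (10.6%, where 8.41% did). The hematopoietic covariate gave 0 in both, as did the fit without the AhR-/- libraries that had Y-linked reads. Against CYP1B1-/-, 11, 12 and 18 members passed with the likelihood ratio test, DESeq2 and voom (22.4%, 24.5% and 36.7%, where 17.4%, 20.5% and 30.2% of genes did), and 0 without the filter, with at least 10 counts, with the covariate and without the libraries with Y-linked reads. Over both states 13 passed with DESeq2 (22.4%), 20 with voom (34.5%), 7 with RLE (12.1%) and 12 with at least 10 counts (37.5%), where 18.3%, 29.7%, 9.57% and 20.6% of genes did, and 1 with the covariate or without the libraries with Y-linked reads (0.0481% and 0.0174% of genes). In the interaction 2 passed with DESeq2 and 17 with voom (10.0% and 27.4% of genes). The members separate in both states were 0 with at least 10 counts, since Acp1 had 5 in 1 library and was not tested, and 2, Acp1 and Tmem18, against WT only.

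With the replicate number as a block, 8 members passed after HDM against WT and CYP1B1-/- (16.3%, where 14.3% of genes did), 0 against WT and 0 against CYP1B1-/- (1 gene each) and 1 over both states (12 genes). Same-numbered libraries deviated with correlations of -0.469 to 0.672, and 8 of 20 pairs were over 0.1. Whether some same-numbered samples were handled together was not tested.

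Leaving out 1 library at a time gave 0 to 21 members after HDM against WT and CYP1B1-/- (0 without AhR-/- replicate 4, 1 without replicate 3, 11 without replicate 1), 0 to 16 against WT, 0 to 16 against CYP1B1-/-, 1 to 13 over both states, 0 to 4 in the interaction and 0 to 1 in each steady-state comparison of AhR-/-. The highest of these counts came where 31.4% of genes passed against WT and CYP1B1-/-, 25.1% to 29.0% against WT, 20.7% against CYP1B1-/-, 17.4% over both states and 9.4% to 10.0% in the interaction, and the lowest where 0% to 0.139% did. Against WT, 0 passed without AhR-/- replicate 1, 3 or 4 or WT replicate 3 or 4, and 2 without WT replicate 1. The causes were not tested. Leaving out genes that held 1% or more of any library moved the median of all genes after HDM from -0.04 to 0.09 and, against WT, from 0.00 to 0.15, so changes of that size depend on scaling. No called member changed sign under any scaling. In the shallowest library 3 counts stood for 1.09 CPM.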
